A study of Mus musculus with 6 samples.

Results

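The promoter regions that carried H3K4me3 in both lymphoid lines but over a far longer stretch in the pre-B line were selected from the peak lists of Scid.adh.2C2 and 230-238 cells. Overlapping peaks of the lists were merged into 22625 regions, of which 9672 held peaks of both lines and overlapped the 2500 bp either side of an annotated transcription start site (TSS). A region was a member when its summed peak width in 230-238 was at least 2 times that in Scid.adh.2C2 and at least 1500 bp. This rule gave 465 members, or 4.81% of the shared promoter regions, while the mirrored rule gave 79 regions wider in Scid.adh.2C2 (0.817%). Since the widths chose the members, widths and the fold enrichment that comes with them are descriptions, given beside the same value over all 9672 shared promoter regions.

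The study examined how regulatory elements are assigned to genes in early lymphocytes, and these data show which promoters are marked in a T-lineage and a B-lineage progenitor line. Scid.adh.2C2 is a mouse pro-T line derived from a tumor of the CB17-Prkdc scid background, and 230-238 is a pre-B line transformed with the Abelson virus. Each line was measured by ChIP-seq with 2 H3K4me3 libraries and 1 input library, and the authors deposited 1 peak list per line in which the replicates are combined. Neither list holds a value per replicate or a read count, so the sequencing depth cannot be stated, the replicate error is not known and no test was made. Each lineage is represented by 1 transformed line, and lineage, transformation, culture and library quality cannot be told apart.

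Trimethylation of lysine 4 on histone H3 (H3K4me3) marks active promoters, where it is laid down by the Set1 and MLL methyltransferase complexes. CXXC-domain subunits bring these complexes to unmethylated CpG dinucleotides, so that CpG-rich promoters carry the mark in most cell types. Broad domains that reach into the gene body are known from genes that are highly transcribed and from genes of cell identity.

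The labels were compared with promoter peaks at marker genes. Of 10 B cell progenitor markers, 9 had a promoter peak in 230-238, the exception being Rag1, and 3 had one in Scid.adh.2C2. All 10 T cell progenitor markers had a promoter peak in Scid.adh.2C2 and 3 had one in 230-238. Of 6 myeloid and 4 NK cell markers, none had a promoter peak in either line, and of 4 erythroid markers 2 had one in Scid.adh.2C2 and 1 in 230-238.

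The promoters below belong to members at genes of the B cell, signaling, adhesion and survival lists described later, and they are the 6 such members with the largest width ratio for which the RefSeq table held a promoter. Socs2, which also ranked among them, is named only. Each line gives the 250 bases upstream of the RefSeq start of the gene in GRCm38.p6, 5′ to 3′ on the strand of the gene, with CpG dinucleotides in capitals. They are shown because they run from CpG-poor to CpG-rich.
Irf4 (chr13:30748983-30749232, plus strand): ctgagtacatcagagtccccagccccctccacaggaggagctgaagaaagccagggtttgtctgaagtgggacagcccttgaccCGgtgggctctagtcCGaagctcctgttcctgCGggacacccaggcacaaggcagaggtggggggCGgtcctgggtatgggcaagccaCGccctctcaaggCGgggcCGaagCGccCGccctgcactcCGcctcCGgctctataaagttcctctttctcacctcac
Cd53 (chr3:106790150-106790399, minus strand): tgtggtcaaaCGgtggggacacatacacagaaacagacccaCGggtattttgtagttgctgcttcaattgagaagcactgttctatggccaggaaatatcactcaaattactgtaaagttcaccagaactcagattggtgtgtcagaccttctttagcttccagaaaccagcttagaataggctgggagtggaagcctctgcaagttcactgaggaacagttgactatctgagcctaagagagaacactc
Pik3cd (chr4:149698709-149698958, minus strand): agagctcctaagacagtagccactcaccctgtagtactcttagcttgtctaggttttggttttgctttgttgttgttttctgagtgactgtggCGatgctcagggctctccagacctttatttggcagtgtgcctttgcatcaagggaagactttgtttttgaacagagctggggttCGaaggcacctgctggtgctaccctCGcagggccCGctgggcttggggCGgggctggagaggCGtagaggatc
Btk (chrX:134583141-134583390, minus strand): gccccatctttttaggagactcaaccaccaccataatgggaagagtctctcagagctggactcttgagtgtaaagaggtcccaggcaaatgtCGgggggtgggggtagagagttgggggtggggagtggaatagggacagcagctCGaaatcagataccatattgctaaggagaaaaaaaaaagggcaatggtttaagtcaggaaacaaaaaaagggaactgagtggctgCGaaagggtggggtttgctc
Pou2f2 (chr7:25132461-25132710, minus strand): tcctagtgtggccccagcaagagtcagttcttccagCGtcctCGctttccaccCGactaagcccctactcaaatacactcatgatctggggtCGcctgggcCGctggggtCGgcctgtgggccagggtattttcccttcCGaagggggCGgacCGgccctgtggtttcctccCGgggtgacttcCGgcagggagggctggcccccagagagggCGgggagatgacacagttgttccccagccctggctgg
Bcl2 (chr1:106714291-106714540, minus strand): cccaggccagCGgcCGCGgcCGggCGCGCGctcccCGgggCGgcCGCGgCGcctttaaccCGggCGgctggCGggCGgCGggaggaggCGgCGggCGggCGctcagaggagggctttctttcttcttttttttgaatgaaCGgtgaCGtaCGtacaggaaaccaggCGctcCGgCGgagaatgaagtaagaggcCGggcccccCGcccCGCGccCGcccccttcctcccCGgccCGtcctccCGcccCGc

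The stretch of Cd53 held 2 CpG dinucleotides, that of Btk 3, that of Pik3cd 6, that of Irf4 11 and that of Pou2f2 12. The stretch of Bcl2 held 36 and had a ratio of observed to expected CpG of 1.03, against 0.157 for Cd53. The RefSeq start following the stretch lay in a peak of both lines for Pik3cd, Pou2f2 and Bcl2, and in a peak of 230-238 only for Irf4 and Btk. At Cd53 it lay just outside the peaks of both lines.

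The median summed width of the 465 members was 1296 bp in Scid.adh.2C2 (interquartile range 819 to 1934 bp, range 238 to 5356 bp). In 230-238 it was 3711 bp (interquartile range 2539 to 4961 bp, range 1516 to 13580 bp). Over all shared promoter regions the medians were 1961 and 2233 bp. The members were therefore below the general median in the pro-T line and above it in the pre-B line. Their median width ratio was 2.56, beside 1.11 over all shared promoter regions. It was at least 3 in 155 members (33.3%, beside 1.89% of all shared promoter regions). In 41 members (8.82%, beside 0.445%) it was at least 5, with a maximum of 29.7 at Nav2. Together the members covered 671.6 kb in Scid.adh.2C2 and 1866 kb in 230-238.

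**Figure D1:**
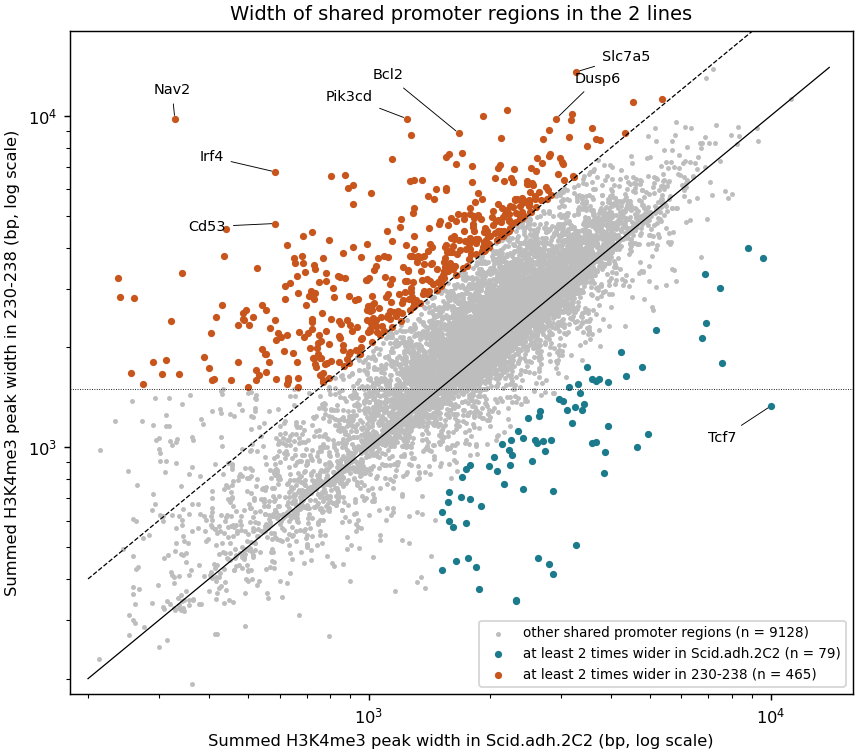
Summed H3K4me3 peak width of each shared promoter region in Scid.adh.2C2 (x axis) and 230-238 (y axis), in bp on log scales. The solid line marks equal widths, the dashed line a ratio of 2 and the dotted line 1500 bp. The 465 members lie above the dashed line by the rule, with Nav2 farthest from it and Slc7a5 highest, and the 79 regions wider in Scid.adh.2C2 include Tcf7.

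At the ratio limit, the members just inside were Gpr137c with Txndc16 (953 and 1910 bp in Scid.adh.2C2 and 230-238), Tle4 (1752 and 3513 bp) and 9530082P21Rik (893 and 1791 bp). The regions just outside were Pi4ka with Snap29 (2108 and 4213 bp), Cth (2068 and 4131 bp) and Rufy3 (2429 and 4842 bp). At the width limit, Bcl2l15 (1516 bp in 230-238), Gm48248 (1521 bp) and Alpl (1551 bp) were just inside, and Irak2 (1497 bp), Gm13293 (1496 bp) and Stac3 (1495 bp) just outside.

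The member with the largest ratio was Nav2, which encodes neuron navigator 2, with 329 bp in Scid.adh.2C2 and 9784 bp in 230-238. It was followed by Rcbtb2 (238 and 3240 bp), the predicted gene Gm15408 (240 and 2843 bp) and Irf4 (585 and 6771 bp). Next came Mbnl3, a regulator of splicing (260 and 2826 bp), Zfp36, whose product speeds the decay of AU-rich mRNAs (442 and 4540 bp), and the shared region of Gnl3 and Pbrm1 (342 and 3360 bp). Pbrm1 encodes a subunit of the PBAF chromatin remodeling complex. Rai1 (436 and 3785 bp), the region of Mc1r and Tubb3 (803 and 6583 bp) and the tetraspanin gene Cd53 (585 and 4731 bp) completed the first 10. The Scid.adh.2C2 peaks at these 10 members were all narrower than 1 kb, and their fold enrichment lay between 5.02 and 12.4.

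The widest member in 230-238 was Slc7a5, the light chain of an amino acid transporter, with 13580 bp against 3286 bp in Scid.adh.2C2. Mgat1, which starts complex N-glycan synthesis, had 11227 against 5356 bp. The region of Dnaaf2 and Pole2, the latter a subunit of DNA polymerase epsilon, had 11033 against 4552 bp. The splicing regulator Mbnl1 had 10391 against 2208 bp and the kinase gene Stk17b 10107 against 3199 bp. Sema7a, a membrane-anchored semaphorin, had 9995 against 1926 bp, Dusp6 9804 against 2927 bp and Pik3cd 9801 against 1244 bp. Nav2 and the region of Pml and Stoml1 (9693 against 3188 bp) were the other members among the 10 widest. In contrast to the members with the largest ratios, most of these were wider in the pro-T line than the general median of 1961 bp. A width of at least 5000 bp in 230-238 was found in 114 members (24.5%, beside 4.14% of all shared promoter regions).

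The number of peaks per region was counted next. In 404 members (86.9%, 95% Wilson interval 83.5% to 89.7%) each list held 1 peak, a share close to the 86.3% over all shared promoter regions. When peaks within 1000 bp were joined into 1 region, it was 47.2% of the members. Such intervals cover counting error only, and neighbouring regions are not independent. In 35 members (7.53%, beside 4.83% of all shared promoter regions) several Scid.adh.2C2 peaks lay in 1 peak of 230-238. In 25 (5.38%, beside 8.36%) the opposite was found, and in 1 (0.215%, beside 0.538%) both lists held several. In 348 members (74.8%) every base covered in Scid.adh.2C2 was also covered in 230-238, beside 39.6% of all shared promoter regions. In these 348 the pro-T domain was nested in the pre-B domain, which the rule favours because it asks for the larger width in 230-238.

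To place the additional bases, the annotated TSS nearest the summit of the highest 230-238 peak was taken as the reference TSS of each region. The members held 1206 kb covered in 230-238 only, of which 72.0% lay downstream of this TSS. Over all shared promoter regions 68.9% of 4756 kb did. The downstream edge lay 1621 bp farther out in 230-238 in the median member and the upstream edge 344 bp. These medians were 99 and 20 bp over all shared promoter regions. The 230-238 domain was longer at both edges in 372 members (80.0%, beside 43.8% of all shared promoter regions). It was longer at the downstream edge only in 78 (16.8%, beside 27.6%) and at the upstream edge only in 15 (3.23%, beside 14.8%). The rule itself asks for a longer 230-238 domain, so these counts are descriptions. By annotation, 68.5% of the additional bases were in introns of protein-coding genes, 21.0% outside such genes, 6.24% in untranslated exons and 4.32% in coding exons. The corresponding shares over all shared promoter regions were 69.7%, 22.0%, 4.34% and 3.97%.

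The coverage around the TSS gives the same picture by distance. At the reference TSS, 88.8% of the members were covered by a 230-238 peak and 73.8% by a Scid.adh.2C2 peak. In the other shared promoter regions these shares were 85.4% and 86.4%. The reference TSS was placed by the 230-238 summit and the members were chosen by 230-238 width, so higher 230-238 shares are favoured in the members. At 1000 bp downstream the shares of the members were 82.8% and 33.8%, and at 2000 bp downstream 63.2% and 5.59%. At 2000 bp downstream in the 9207 other shared promoter regions they were 21.0% and 12.3%. The lines differed most within the first kilobases of the transcribed part of the member genes.

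**Figure D2:**
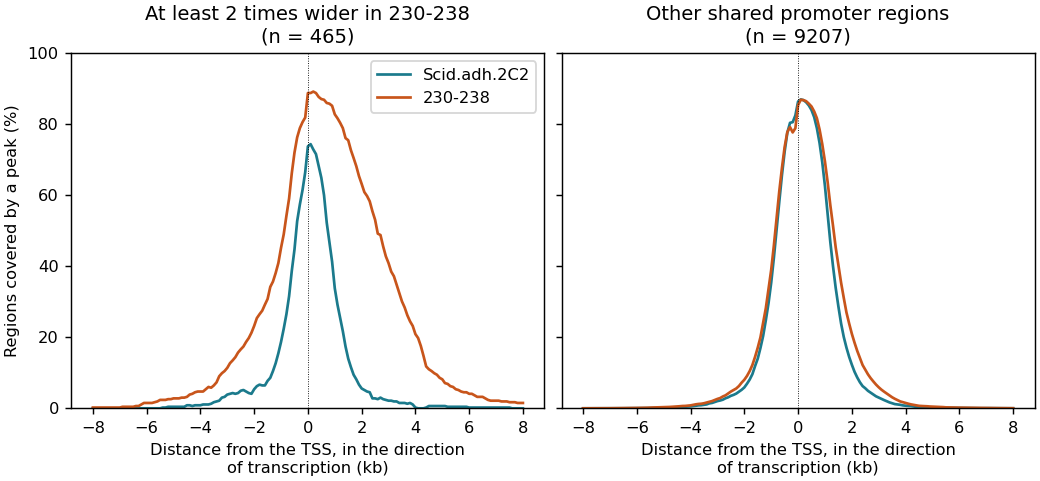
Percentage of regions covered by an H3K4me3 peak (y axis) by distance from the reference TSS in kb, with positive values in the direction of transcription (x axis), for the 465 members and the 9207 other shared promoter regions. The 230-238 line stays at 63.2% of the members at 2 kb downstream, where the Scid.adh.2C2 line is at 5.59%, and in the other regions the shares at that distance are 21.0% and 12.3%.

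In some members the mark covered a TSS in 1 line only. The rule gives the members more covered bases in 230-238, so TSSs covered in 230-238 only are favoured in them and the counts are descriptions. Of 1111 annotated protein-coding TSSs within 2500 bp of the members, 779 (70.1%) lay in peaks of both lines, 204 (18.4%) in a 230-238 peak only and 35 (3.15%) in a Scid.adh.2C2 peak only. Over all shared promoter regions the shares were 86.2%, 2.86% and 3.35%. At 61 of 458 protein-coding genes (13.3%, beside 1.73% over all shared promoter regions), at least 1 of these protein-coding TSSs was in a 230-238 peak and none was in a Scid.adh.2C2 peak. Irf4, Btk, Zfp36 and Traf1 were among these genes, and at these genes no annotated TSS of any transcript was in a Scid.adh.2C2 peak. In 340 members the reference TSS lay in a peak of both lines, so that this start was marked over different lengths. Only 1 TSS per region was examined in this count, and other members can have another start in peaks of both lines.

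The height of the peaks was compared by the authors' fold enrichment over background, taken as the highest value of each line in a region. In 230-238 the median fold enrichment of the members was 20.6, beside 20.7 over all shared promoter regions. In Scid.adh.2C2 it was 18.5 beside 25.7. Because the scales of the lists may differ, the values were also ranked within each list. The median member stood at percentile 70.7 of the 230-238 list and at percentile 45.1 of the Scid.adh.2C2 list, where all shared promoter regions had medians of 71.3 and 66.6. The members were therefore of ordinary height in the pre-B line and lower than the general median in the pro-T line. The fold enrichment was higher in 230-238 in 262 members (56.3%, beside 27.1% over all shared promoter regions). The percentile within the list was higher in 230-238 in 368 members (79.1%, beside 56.6%).

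**Figure D3:**
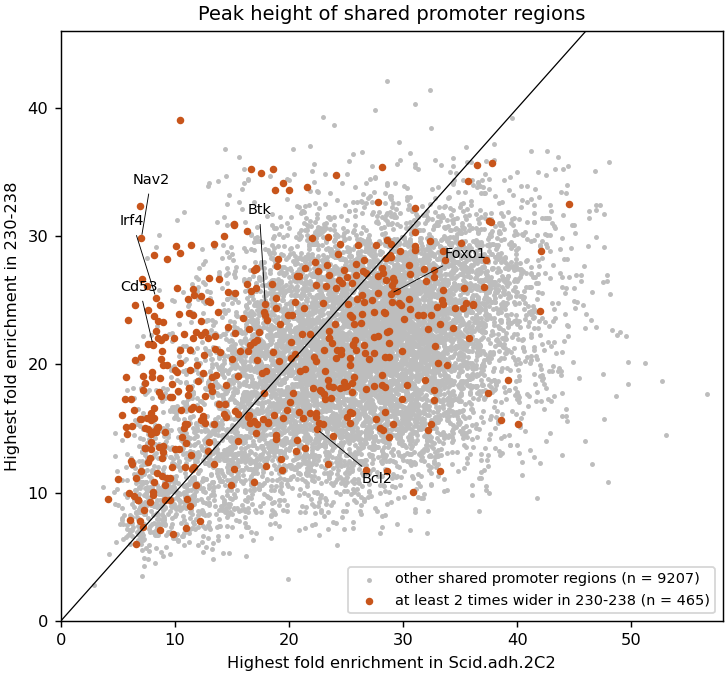
Highest fold enrichment over background of each shared promoter region in Scid.adh.2C2 (x axis) and 230-238 (y axis), with the line of equal values. The members range from 4.15 to 44.5 in Scid.adh.2C2, with Irf4 and Nav2 under 10 and Foxo1 at 28.9, and the highest member in 230-238 is the region of Lta and Tnf with 39.1.

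The members were not all weak peaks in the pro-T line. In 104 members (22.4%, beside 5.13% of all shared promoter regions) the Scid.adh.2C2 fold enrichment was under 10. These had median widths of 716 bp in Scid.adh.2C2 and 2507 bp in 230-238. In 208 members (44.7%, beside 72.3%) it was at or above the median of the Scid.adh.2C2 list, and their median widths were 1843 and 4491 bp. Bcl2 belonged to the latter, with percentile 56.0 of the Scid.adh.2C2 list and percentile 48.3 of the 230-238 list, so that its domain was longer in the pre-B line without ranking higher. Nfatc1 (percentiles 72.2 and 61.5) and Slc7a5 (55.7 and 52.1) had the same order. The highest IDR score of 1000 was reached in both lists by 427 members (91.8%, beside 95.5%).

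The CpG content was computed from the genome over 1001 bp centred on the reference TSS, as the ratio of observed to expected CpG. Its median was 0.581 in the members and 0.741 over all shared promoter regions, and it was under 0.6 in 242 members (52.0%, beside 24.4%). The members with a Scid.adh.2C2 fold enrichment under 10 had a median of 0.323, and those at or above the list median had 0.692. Within the members, the bases covered in both lines had a median ratio of 0.542 and the bases covered in 230-238 only had 0.239. The latter had the lower median CpG ratio, as in all shared promoter regions, where the medians were 0.599 and 0.217.

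Short motifs were counted on both strands of the same 1001 bp. The EBF1 core CCCNNGGG was found in 51.0% of the members and 49.3% of all shared promoter regions, and the octamer ATGCAAAT, bound by POU2F proteins, in 3.66% and 3.35%. The E-box CAGGTG was found in 59.6% and 54.0%, the RUNX letters TGTGGT in 44.1% and 36.4% and the GATA letters AGATAA in 28.0% and 21.9%. The TCF7 and LEF1 letters CTTTGAT were in 10.5% and 8.06%, and the PU.1 letters GAGGAAGT in 12.3% and 7.23%. A match is a description of the letters, and the members had fewer CpG dinucleotides than all shared promoter regions, which was not separated from these counts.

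To describe the genes at the members, lists of pathways were used, and genes with at least 1 shared promoter region were counted. These lists were chosen with earlier results of these data known, so their counts are descriptions and not an independent comparison. Over all protein-coding genes, 491 of 9227 (5.32%) had a member, 88 (0.954%) had a region wider in Scid.adh.2C2, and the median width ratio of the regions was 1.11. Among B cell transcription factors, 7 of 16 genes had a member, none had a region wider in Scid.adh.2C2, and the median ratio of all their regions was 1.62. Of Irf4, which acts in the differentiation of pre-B cells, the Scid.adh.2C2 peak covered 585 bp from -1554 to -969 bp of the TSS, and the 230-238 peak ran from -2349 to 4422 bp. Such distances are counted from the annotated TSS of the gene nearest the 230-238 summit, which may differ from the RefSeq start. The peak of the pro-T line thus ended upstream of the stretch printed above and did not reach the gene. Pou2f2, encoding OCT2, had 625 bp in Scid.adh.2C2 and 4087 bp in 230-238, and its coactivator Pou2af1 had 1870 and 5861 bp. At Pou2af1 the peaks began at -476 and -519 bp and ended at 1394 bp in Scid.adh.2C2 and 5342 bp in 230-238.

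The 4 other B cell transcription factors had smaller ratios. Ikzf3, encoding Aiolos, had 747 and 1905 bp in Scid.adh.2C2 and 230-238 at 1 of its regions and 2281 and 3125 bp at another, which was not a member. The E protein antagonist Id3 had 1771 and 4117 bp and the E protein gene Tcf3 had 1994 and 4093 bp. Foxo1, which drives the recombination genes in B cell progenitors, had 3767 and 8474 bp. It was the only one of the 7 with a higher fold enrichment in Scid.adh.2C2 (28.9 against 25.5). Ranked within each list, however, Foxo1 stood higher in the 230-238 list. Among the regions that were not members, named after their values were seen, Lef1 was broad in both lines (6898 and 13050 bp), and Runx1, Myb and Ikzf1 had ratios close to 1.

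Of 12 genes of the pre-B cell receptor and its signaling, 6 had a member and the median ratio was 1.54. Pik3cd, the catalytic subunit of the leukocyte PI3-kinase delta, had 2 peaks of 309 and 935 bp in Scid.adh.2C2 and 1 peak of 9801 bp in 230-238 that enclosed them. Btk, the kinase that relays receptor signals, had 885 and 6048 bp in a region shared with the promoter window of the ribosomal protein gene Rpl36a. The Scid.adh.2C2 peak lay from -3098 to -2213 bp of the Btk TSS, at the end of the region toward Rpl36a, and cannot be assigned to Btk rather than to its neighbour. The adjacent region of Rpl36a had 2050 and 2701 bp and was not a member. The phosphatase genes Ptpn6 (1299 and 5278 bp) and Inpp5d (2310 and 5616 bp), the transcription factor gene Nfatc1 (2094 and 6942 bp) and the exchange factor gene Vav1 (1516 and 3064 bp) were the other members.

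Of 23 genes of Jak-Stat5 and Abl signaling, 7 had a member, with 9 member regions and a median ratio of 1.35. Socs2, a feedback inhibitor induced by STAT5, had members at 2 regions (1015 and 5835 bp, and 2208 and 4463 bp). The adaptor gene Gab2 had 732 and 2809 bp. The survival kinases Pim1 (2271 and 4756 bp), Pim2 (2381 and 5360 bp, in a region shared with Slc35a2) and Pim3 (1627 and 4350 bp) were all members. Ccnd3, the D-type cyclin of pre-B cells, had 2 members (1943 and 4573 bp, and 1119 and 2499 bp), and the Abl-related kinase gene Abl2 had 1949 and 3931 bp. Bcl2, which blocks apoptosis, had 1675 and 8858 bp. It was the only member among the 18 listed genes of the Bcl2 family and p53 axis, whose median ratio was 1.05. Bcl2l15, the member at the width limit above, was not in this list.

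Among homing and adhesion receptors, 4 of 11 genes had a member, with a median ratio of 1.17. They were the tetraspanin genes Cd53 and Cd37 (2057 and 6511 bp, shared with Slc6a16 and Tead2), the chemokine receptor gene Ccr7 (753 and 3156 bp) and the selectin ligand gene Selplg (2154 and 4961 bp). In MAP kinase and NF-kB signaling 4 of 22 genes had a member, with a median ratio of 1.22. These were the ERK phosphatase genes Dusp6 and Dusp5 (2092 and 4481 bp), Traf1 (1097 and 3269 bp) and Tnfaip3, which encodes the NF-kB inhibitor A20 (1911 and 3904 bp). At Dusp6 the Scid.adh.2C2 peak lay from -5245 to -2318 bp of the TSS nearest the 230-238 summit, and the 230-238 peak extended across this TSS to 4263 bp. Dusp6 was not among the genes above with protein-coding TSSs in 230-238 peaks only, so another of its starts may lie in the Scid.adh.2C2 peak.

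**Figure D4:**
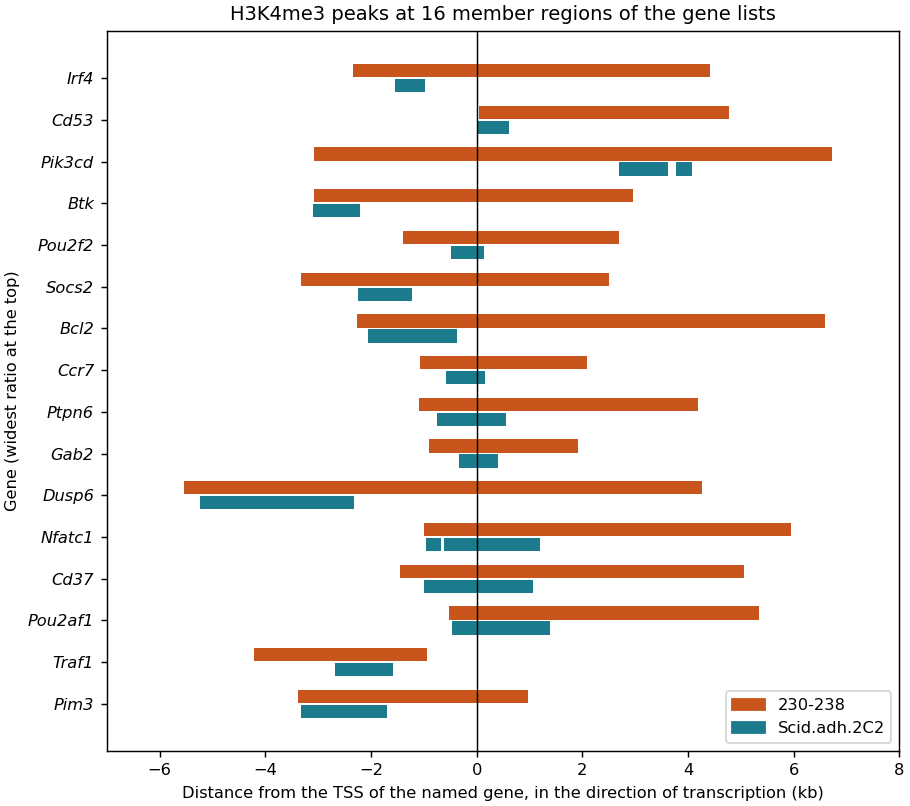
H3K4me3 peaks of 230-238 and Scid.adh.2C2 at the 16 genes of the pathway lists with the largest width ratios, as distance in kb from the annotated TSS of each gene nearest the 230-238 summit, in the direction of transcription (x axis). At Pou2af1 and Nfatc1 the peaks share their upstream part and the 230-238 peak runs on downstream. At Irf4, Btk, Socs2, Bcl2, Dusp6, Traf1 and Pim3 the Scid.adh.2C2 peak lies upstream of the plotted TSS. At Traf1 the 230-238 peak lies upstream of it as well, and at Pik3cd the Scid.adh.2C2 peaks lie downstream of it. A gene can have another start inside its Scid.adh.2C2 peak, and the RefSeq start of Bcl2 lay in a peak of both lines.

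Each remaining pathway list had at most 1 gene with a member, and these single counts are read beside the 5.32% of all protein-coding genes. H2-DMa (735 and 1784 bp) was the member among 4 genes of MHC class II and antigen presentation, Xrcc6 (771 and 1595 bp) the member among 11 genes of V(D)J recombination and end joining, and Rps24 (2020 and 4948 bp) the member among 48 cytosolic ribosomal protein genes. None of the 14 listed genes for writers and erasers of H3K4 methylation had a member. The H3K4 demethylase gene Kdm5d, named in the closing section, was a member but was not in this list. None of 9 T cell transcription factors and none of 5 genes of the T cell receptor and CD3 had one either, and in each of these lists 1 gene had a region wider in Scid.adh.2C2. These were Tcf7, encoding TCF1 (10029 bp in Scid.adh.2C2 and 1332 bp in 230-238), and Cd3d (2837 and 1048 bp). No myeloid gene had a shared promoter region.

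The study's own lists of lineage genes were chosen on RNA of sorted progenitors and not on these peaks. Of 85 B-lineage genes with a shared promoter region, 30 (35.3%) had a member and 1 (1.18%), the histone gene Hist1h2bf, had regions wider in Scid.adh.2C2. Of 70 T-lineage genes, 10 (14.3%) had a member and 8 (11.4%) had a region wider in Scid.adh.2C2, beside 5.32% and 0.954% of all protein-coding genes. Counted by region, 30 of the 465 members (6.45%, 95% Wilson interval 4.56% to 9.06%) were at a B-lineage gene and 9 (1.94%) at a T-lineage gene, while 1.06% and 0.858% of all shared promoter regions were.

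After Irf4, Zfp36, Btk and Pou2f2, the B-lineage genes with the largest ratios were the adaptor gene Cass4 (683 and 3784 bp in Scid.adh.2C2 and 230-238), the myosin gene Myo1c (1651 and 7143 bp), Ccr7, Bcat1, which encodes a branched-chain amino acid transaminase (718 and 2962 bp), the proton channel gene Hvcn1 (1467 and 6007 bp) and a further region of Zfp36 (1555 and 6057 bp). The 10 T-lineage genes included Mc1r with Tubb3, the cystatin gene Cst7 (847 and 3263 bp), the interferon gamma receptor gene Ifngr1 (1000 and 3232 bp), Lrp1 (712 and 1994 bp) and Mta3, a subunit of the NuRD complex (2180 and 5070 bp). Padi2 (1127 and 2567 bp), Rapgef3 (1479 and 2970 bp), Selplg and Dusp5 completed them. The T-lineage list thus contained genes whose domains were longer in the pre-B line and genes such as Tcf7 whose domains were shorter there.

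**Figure D5:**
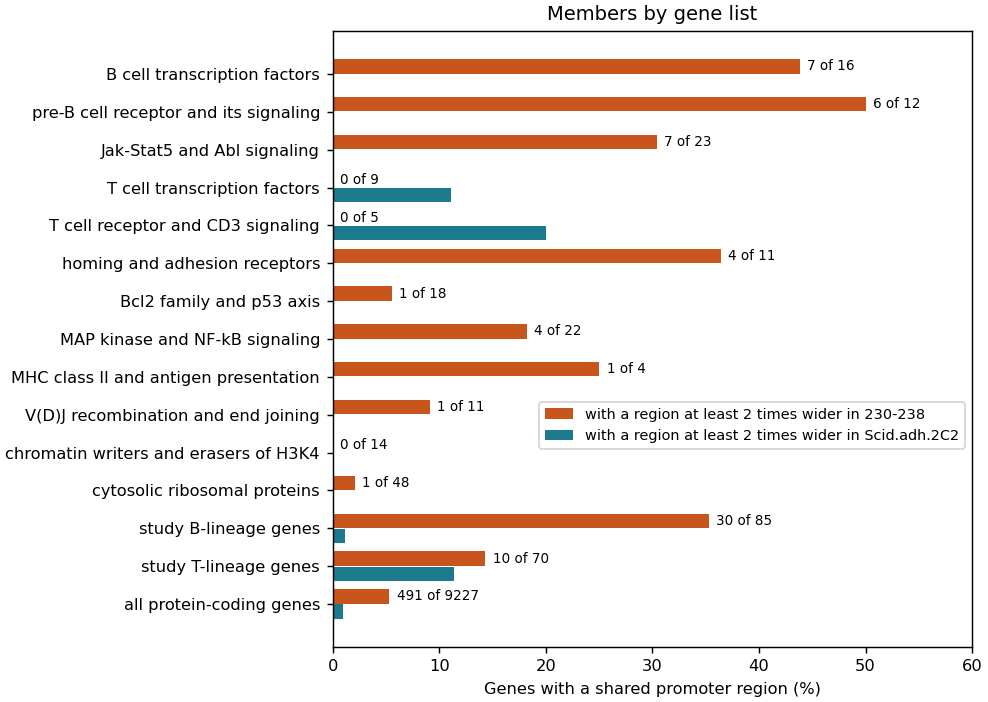
Percentage of the genes with a shared promoter region (x axis) that had a region at least 2 times wider in 230-238 or in Scid.adh.2C2, for the gene lists (y axis) and all protein-coding genes, with the number of genes with a member printed. The pre-B cell receptor list has 6 of 12 genes, the B cell transcription factors 7 of 16 and all protein-coding genes 491 of 9227. The pathway lists were chosen with earlier results of these data known.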

How the data were processed

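H3K4me3 ChIP-seq of Scid.adh.2C2 and 230-238 cells was analysed (6 samples: 2 H3K4me3 libraries and 1 input library per line). Per the labels and the study's methods, the authors used Trim Galore 0.6.7 to trim reads, aligned them to mm10 with Bowtie2 2.4.4, called narrow peaks with MACS2 2.2.7.1 against the input and kept the optimal set by IDR between replicates. The deposited fold enrichment is a ratio over background, the score is the authors' scaled IDR and the -log10 p-value is the authors' value from MACS2. All were used unchanged, and the -log10 p-value only to rank peaks. A position and width in bp were taken from the deposited coordinates. Read counts were not analysed here, so that depth and its precision are unknown, and a narrow peak caller can split or shorten a broad domain.

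Peaks were merged when they shared at least 1 bp, and promoters were taken from GENCODE M21. Widths were summed per list. CpG content was read from GRCm38.p6 and promoters from RefSeq. No test was made, since each group is 1 combined list. Study symbols were matched directly or by synonym (246 of 253 B-lineage and 229 of 233 T-lineage entries). Genes named are those at the 10 members with the largest ratio, the 10 with the largest 230-238 width, members in a gene list (10 with the largest ratio per list) and 3 regions on each side of each threshold, and Lef1, Runx1, Myb, Ikzf1, Tcf7, Cd3d, Hist1h2bf, Lta, Tnf and the genes of the closing section were added once their values had been seen. The members and lists were chosen with earlier results of these data known. Alternatives changed the promoter window, TSS set, peak filters, merging, measure of width and thresholds. The functions were tested on simulated data. Scripts ran in Python 3.11.15 with numpy 2.4.6, scipy 1.17.1, pandas 2.3.3 and, for plots, matplotlib 3.10.9.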

Additional observations from a re-analysis of the deposited data

How the results depend on the processing

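The 465 members became 1256 with a ratio of 1.5, 155 with a ratio of 3 and 296 with a minimum of 3000 bp, and ranged from 320 (widths scaled to each list's median) to 572 under the other planned settings. Added after seeing the data, 455 remained when a peak of each list had to reach the same TSS window, and 340 when the reference TSS lay in peaks of both, of which 17 were at a B-lineage gene.

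The median 230-238 width was 4012 bp with peaks of at least 10-fold enrichment, 4324 bp with peaks within 1000 bp merged, 3306 bp at a ratio of 1.5, 3427 bp at 3, 3246 bp with no minimum and 4506 bp with 3000 bp. The median ratio was 2.44 with peaks of at least 10-fold, 1.81 at a ratio of 1.5 and 4.06 at 3. The share with 1 peak in each list was 92.7% with peaks of at least 10-fold, 47.2% with peaks merged, 91.0% at a ratio of 3 and 82.1% with 3000 bp. The share of additional bases downstream was 77.5% with protein-coding TSSs only.

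The median 230-238 fold enrichment was 21.9 with peaks of at least 10-fold, 19.0 at a ratio of 3, 19.3 with no minimum and 22.3 with 3000 bp. The median Scid.adh.2C2 fold enrichment was 23.0 with peaks of at least 10-fold, 20.3 with peaks merged, 23.5 at a ratio of 1.5, 11.3 at 3, 16.4 with no minimum, 23.3 with 3000 bp and 15.5 with scaled widths. The share at a B-lineage gene was 3.34% at a ratio of 1.5 and 9.68% at 3, and that at a T-lineage gene 0.876% at 1.5. The other values stayed within the interval of the reported value (within 1.5 times for the count).

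No paired analysis was possible because each line has 1 combined list, and for the same reason leaving out a replicate was not run. The depth behind the lists is unknown, and a shorter domain and a less sensitive measurement cannot be told apart.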

Other observations

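Some members followed each other in the order of the shared promoter regions along a chromosome. Of the 465 members, 68 (14.6%) stood in 31 runs of at least 2 consecutive shared promoter regions, and the longest runs held 4. The runs spanned from 8.44 to 5651 kb, so consecutive members were not always close. The share to be met from the frequency of members alone was not computed, so 14.6% has no background. The genes in this paragraph and the next were chosen after their values were seen. On chromosome 6, a run of 73.5 kb held Gimap8 (761 bp in Scid.adh.2C2 and 2086 bp in 230-238), Gimap9 (2494 and 6209 bp), Gimap6 (1200 and 4876 bp) and Gimap7 (1004 and 2584 bp), which encode GTPases of lymphocyte survival. The other run of 4, also on chromosome 6, held Clec2d (913 and 6201 bp) and the early activation antigen Cd69 (1808 and 6332 bp). Neighbours are not independent, and runs were not tested.

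The cytokine genes Ltb (2100 and 4470 bp) and Lta with Tnf (2122 and 7126 bp) formed a run of 2 on chromosome 17. The immediate early genes Ier2 (3026 and 7247 bp), Nr4a2 (1499 and 4699 bp) and Egr1 (2255 and 6489 bp) were members as well. On chromosome Y, the shared promoter regions, at Kdm5d (748 and 2062 bp) and Uty (555 and 2592 bp), were both members.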
